A study of Mus musculus with 10 samples.

Results

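The genes described here are Cbx2 and 8 other subunits of the Polycomb repressive complexes, read across mouse NIH3T3 cultures that carry FOXP2 or FOXP2-CPED1. Members were the rows of the expression table whose symbol equalled Cbx2, Cbx6, Cbx7, Cbx8, Bmi1, Rnf2, Ezh2, Eed or Suz12, and the row with the highest mean would have been taken had a symbol held several. Of these 9 genes, 7 had a row of their own, and all 7 passed the filter on low values, among 12842 rows tested of 14849 that named a gene. Cbx6 appeared only inside a joined row that also named Nptxr and Npcd, and Cbx7 had no row in the table used here. Cbx2 was chosen by its own measured values, its call in FOXP2-CPED1 clones against controls, so its levels and fold changes are given as a description with no test. Where its calls are followed under other settings, they describe only how far the ground for choosing it depended on the processing. The other members were chosen for their place in the complexes.

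NIH3T3 is an established line of fibroblasts from mouse embryos. The FOXP2-CPED1 group held 4 clones stably overexpressing FOXP2-CPED1, which the study's title calls an arrangement of FOXP2, and the FOXP2 group held 4 clones stably overexpressing FOXP2, a forkhead transcription factor. The control group held 1 culture of parent cells and 1 of cells carrying the vector. RNA from every culture was sequenced as a single library (1 per clone or control), so a spread within a group is a spread between clones or cultures, and p-values measure that spread only. The labels call the construct-bearing cultures independent clones and do not say that either control was cloned, so growing out from 1 cell and carrying a construct cannot be told apart here. The sources used here give neither the promoter nor the species of the constructs.

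Polycomb repressive complex 2 (PRC2) places methyl groups on lysine 27 of histone H3, with Ezh2 as its catalytic subunit and Eed and Suz12 as partners that the enzyme needs. Polycomb repressive complex 1 (PRC1) attaches ubiquitin to histone H2A through a pair of RING proteins, such as Rnf2 and Bmi1, and its canonical form binds the PRC2 mark through the chromodomain of a CBX protein. Cbx2, Cbx6, Cbx7 and Cbx8 are among the alternative CBX subunits of that form, and a canonical PRC1 particle holds 1 of them at a time. Together the complexes keep many developmental genes, including some of the Hox genes, silent in fibroblasts and many other cells.

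Cbx2 and Cbx8 are adjacent on mouse chromosome 11, after Enpp7, with Cbx2 on the plus strand and Cbx8 on the minus strand (GENCODE M21, GRCm38). Neither gene overlapped another annotated gene. Because reads from near-identical copies could be counted for the wrong gene, the coding sequences of the CBX members were compared. The longest run of bases shared without a mismatch with Cbx2 was 11 for Cbx6, 12 for Cbx7 and 16 for Cbx8.

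Cbx2 was the member that stood farthest above the controls in both constructs. It had 8.65, 9.36, 10.03 and 6.44 RPKM (reads per kilobase of transcript, scaled to the mapped reads of the library) in FOXP2-CPED1 clones 1 to 4, 7.13, 6.38, 7.55 and 6.50 RPKM in FOXP2 clones 1 to 4, and 3.34 RPKM in parent cells and 3.60 RPKM in vector cells. All 8 clones lay above both controls, FOXP2-CPED1 clones 1 to 3 lay above every FOXP2 clone, and FOXP2-CPED1 clone 4 lay among the FOXP2 clones. Cbx2 averaged 8.62 ± 1.56 RPKM in FOXP2-CPED1 clones (SD, n = 4), 6.89 ± 0.548 RPKM in FOXP2 clones (SD, n = 4) and 3.47 ± 0.187 RPKM in controls (SD, n = 2). The means of the FOXP2-CPED1 and FOXP2 clones were 2.48 and 1.98 times the control mean. On the log2(RPKM + 1) scale, where the added 1 understates the change of low genes, the difference from control was 1.09 ± 0.17 in FOXP2-CPED1 clones and 0.82 ± 0.17 in FOXP2 clones (standard errors), and FOXP2-CPED1 clones exceeded FOXP2 clones by 0.27 ± 0.14. In these bulk cultures, a change in the share of cells that express a gene and a change in the RNA each cell holds cannot be told apart.

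**Figure D1:**
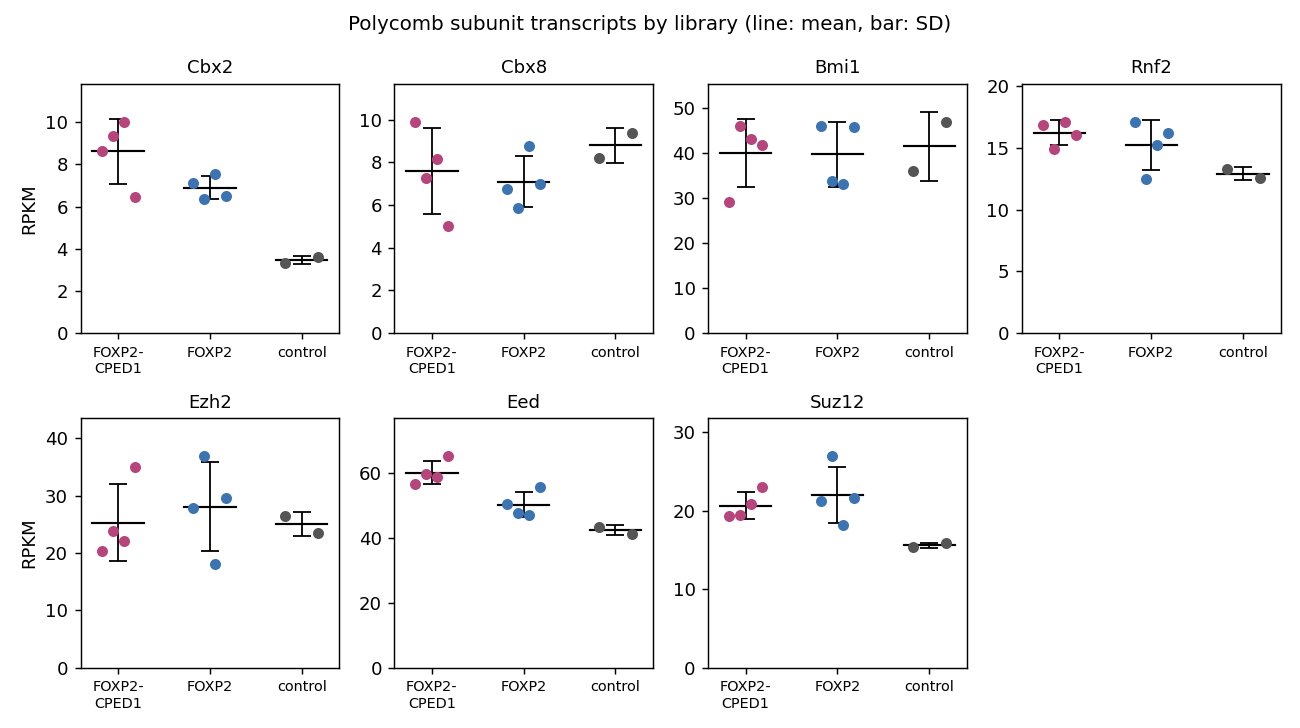
Level of each member with a row of its own, in RPKM on an axis from 0, with 1 point for each library and a line at the group mean and a bar for the SD. FOXP2-CPED1 clones are on the left, FOXP2 clones in the middle and the parent and vector controls on the right. Cbx2 lies between 6.38 and 10.03 RPKM in the 8 clones and at 3.34 and 3.60 RPKM in the controls, whereas the Cbx8, Bmi1 and Ezh2 points of the groups overlap.

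The other members did not pass the test in any comparison. Differences were tested with limma on log2(RPKM + 1) over all 12842 rows, two-sided, with Benjamini-Hochberg adjustment and a threshold of 0.05. In FOXP2-CPED1 clones against controls 0.35% of all rows passed (3 higher, 0.0234%, and 42 lower, 0.327%), and Cbx2, whose call was the ground for choosing it, was the 1 member of 7 among them. In FOXP2 clones against controls 0.436% of rows passed (5 higher, 0.0389%, and 51 lower, 0.397%) and none of the 7 members did. Between FOXP2-CPED1 and FOXP2 clones no row passed, and 2.16% had an unadjusted p under 0.05. Of the 6 members other than Cbx2, 0 passed in each of these limma comparisons. An unadjusted p under 0.05 was reached by 2 of the 6, Eed and Suz12, in FOXP2-CPED1 clones against controls (7.28% of all rows), by 1, Suz12, in FOXP2 clones against controls (8.52%), and by 1, Eed, between the constructs. The median log2 difference of the 6 was 0.15 in FOXP2-CPED1 clones and 0.17 in FOXP2 clones against controls, beside 0.00 and 0.02 over all rows tested. The comparisons of the constructs with the controls share both control libraries, and so do their values below.

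Among the CBX members with a row of their own, Cbx8 did not stand apart from the controls as Cbx2 did. Cbx8 had 9.90, 7.25, 8.17 and 5.04 RPKM in FOXP2-CPED1 clones 1 to 4, 6.73, 5.87, 8.75 and 7.003 RPKM in FOXP2 clones 1 to 4, and 8.21 RPKM in parent and 9.38 RPKM in vector cells. The groups overlapped, with the highest and the lowest value both in FOXP2-CPED1 clones. Its log2 difference from control was -0.22 in FOXP2-CPED1 clones (95% interval -0.73 to 0.29, limma adjusted p = 0.890) and -0.29 in FOXP2 clones (95% interval -0.80 to 0.23, adjusted p = 0.810). These intervals, like those that follow, are for 1 gene at a time and are not adjusted for the number of rows. The joined row of Nptxr, Cbx6 and Npcd, in which the reads of Cbx6 cannot be told from those of the neuronal pentraxin receptor gene Nptxr, lay between 92.6 and 103.8 RPKM in FOXP2-CPED1 clones, between 81.4 and 96.4 RPKM in FOXP2 clones, and at 85.6 RPKM in parent and 89.5 RPKM in vector cells.

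The RING subunits of PRC1 showed no difference that passed. Rnf2, the RING protein that carries the ubiquitin ligase activity, had 16.8, 14.9, 17.1 and 16.1 RPKM in FOXP2-CPED1 clones 1 to 4, 17.1, 12.5, 15.2 and 16.2 RPKM in FOXP2 clones 1 to 4, and 13.3 RPKM in parent and 12.6 RPKM in vector cells. The FOXP2-CPED1 clones all lay above both controls, and FOXP2 clone 2 lay just below them. The log2 difference from control was 0.31 in FOXP2-CPED1 clones (95% interval -0.02 to 0.63, limma adjusted p = 0.706) and 0.21 in FOXP2 clones (95% interval -0.11 to 0.54, adjusted p = 0.758). Rnf2 overlaps Trmt1l on the opposite strand, a gene with a mean of 8.37 RPKM over the libraries. The sources used here do not say whether reads were counted by strand, so reads from the overlap cannot be assigned to one gene. Rnf2 also overlaps Gm36527, on the same strand, which had no row of its own.

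Bmi1, the partner that stimulates the RING ligase, ran from 29.1 to 46.0 RPKM in FOXP2-CPED1 clones and from 33.1 to 46.1 RPKM in FOXP2 clones. It stood at 36.1 RPKM in parent and 47.0 RPKM in vector cells. The vector cells were the highest of all 10 libraries and the parent cells lay inside the range of the clones. Its log2 difference from control was -0.06 in FOXP2-CPED1 clones (95% interval -0.56 to 0.44, limma adjusted p = 0.980) and -0.07 in FOXP2 clones (95% interval -0.57 to 0.43, adjusted p = 0.964).

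Among the PRC2 core genes, Eed and Suz12 lay above both controls in all 8 clones, and Ezh2 did not. Eed, the subunit that binds the methylated histone and stimulates the enzyme, had 56.7, 59.7, 58.9 and 65.1 RPKM in FOXP2-CPED1 clones 1 to 4, 50.3, 47.8, 47.0 and 55.7 RPKM in FOXP2 clones 1 to 4, and 43.5 RPKM in parent and 41.3 RPKM in vector cells. The 3 groups did not overlap at any point, with FOXP2-CPED1 clones highest and controls lowest. Eed averaged 60.1 ± 3.55 RPKM in FOXP2-CPED1 clones (SD, n = 4), 50.2 ± 3.92 RPKM in FOXP2 clones (SD, n = 4) and 42.4 ± 1.55 RPKM in controls (SD, n = 2). Its log2 difference from control was 0.49 ± 0.12 in FOXP2-CPED1 clones (standard error, 95% interval 0.22 to 0.77, limma adjusted p = 0.218). In FOXP2 clones it was 0.24 ± 0.12 (95% interval -0.04 to 0.51, adjusted p = 0.675). FOXP2-CPED1 clones exceeded FOXP2 clones by 0.26 ± 0.10 (95% interval 0.03 to 0.48, adjusted p = 0.9998). The first and the last of these intervals held only positive values, but none of these differences passed. Eed overlaps Gm45120 on its own strand and E230029C05Rik on the opposite strand, neither with a row of its own, so reads from those stretches cannot be assigned to one gene. Separation of this kind, with every clone of a group above both controls, was met by 12.2% of all rows in FOXP2-CPED1 clones and 9.13% in FOXP2 clones, and by 0.576% of rows for FOXP2-CPED1 above FOXP2 clones. Every clone below was met by 13.3%, 10.4% and 0.802% of rows in the same order of comparisons.

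Suz12, the scaffold of the PRC2 core, had 19.3, 19.4, 20.8 and 23.1 RPKM in FOXP2-CPED1 clones 1 to 4, 21.3, 26.9, 18.2 and 21.6 RPKM in FOXP2 clones 1 to 4, and 15.4 RPKM in parent and 15.8 RPKM in vector cells. All clones lay above both controls and the constructs overlapped, FOXP2 clone 2 being the highest. The log2 difference from control was 0.38 ± 0.16 in FOXP2-CPED1 clones (standard error, 95% interval 0.02 to 0.74, limma adjusted p = 0.648). In FOXP2 clones it was 0.46 ± 0.16 (95% interval 0.10 to 0.82, adjusted p = 0.396). Both intervals held only positive values, but neither difference passed. Suz12 overlaps the non-coding gene Gm26563 on the opposite strand, which had no row of its own, and the same limit holds. Eed stood at 2.82 to 3.08 times the RPKM of Suz12 in FOXP2-CPED1 clones, 1.78 to 2.58 times in FOXP2 clones, and 2.83 times in parent and 2.61 times in vector cells.

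Of the 6 members other than Cbx2, 2 (Eed and Suz12) lay above both controls in all 8 clones, and 0 lay below both in all 8. Cbx2 also lay above both in all 8, but it was chosen by its own values and is left out of this count. Of all rows tested, 5.44% lay above in that way and 6.38% below. In the comparison of all 8 clones with the controls, 0.0389% of rows passed as higher and 0.498% as lower. An unadjusted p under 0.05 was reached by 9.1% of rows and by 2 of the 6 members other than Cbx2, none of which passed. Of the 3 genes Cbx2, Eed and Suz12, Cbx2 had the largest difference in both constructs, but its choice by its own values makes this order only a description. None of the 3 passed in FOXP2 clones, and Eed and Suz12 did not pass in FOXP2-CPED1 clones. At this number of libraries the calls cannot show whether Cbx2 rose alone or together with Eed and Suz12. The fit that weighted libraries by quality called Rnf2, Eed and Suz12 higher in FOXP2 clones than in controls, with adjusted p of 0.0148, 0.0286 and 0.00507. It called Eed and Suz12 higher in FOXP2-CPED1 clones, with adjusted p of 0.00584 and 0.0342. That fit passed 929 rows for FOXP2-CPED1 and 2095 rows for FOXP2 clones, against 45 and 56 with equal weights, and gave FOXP2 clone 1 a weight of 6.62 and FOXP2 clone 2 a weight of 0.196.

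**Figure D2:**
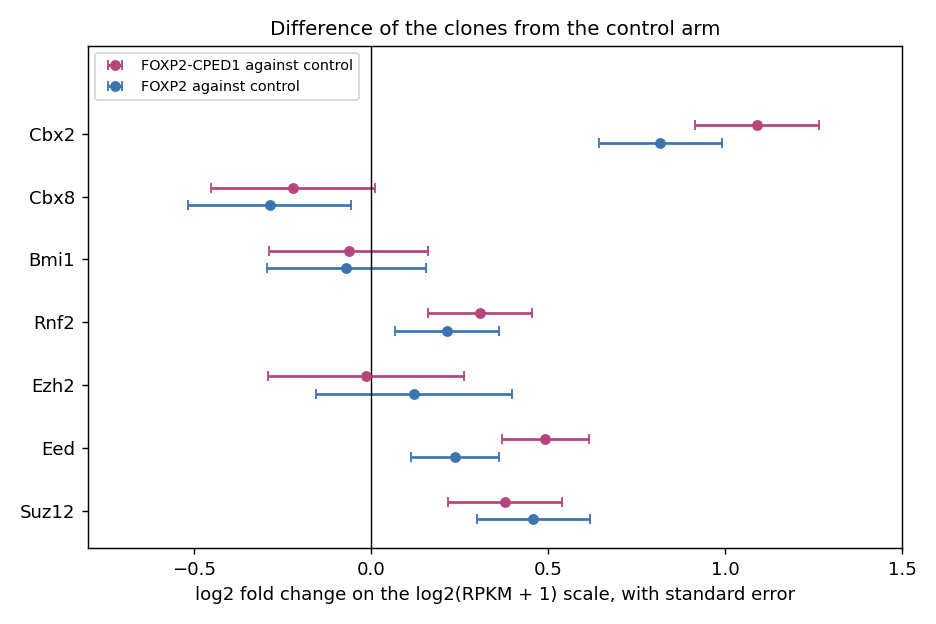
Difference from the control group for the members with a row of their own, on the log2(RPKM + 1) scale, with the standard error from limma as a bar; FOXP2-CPED1 clones are drawn above FOXP2 clones for each gene. Cbx2 lies at 1.09 and 0.82, and the other members between -0.29 and 0.49.

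The promoters of Eed and Suz12 are shown because these genes lay above the controls with Cbx2. Each is the 250 bases before the transcription start in RefSeq, build GRCm38.p6. Eed lies at chr7:89980977-89981226 on the minus strand and Suz12 at chr11:79992856-79993105 on the plus strand, and capitals mark matches to the motifs searched.
Eed: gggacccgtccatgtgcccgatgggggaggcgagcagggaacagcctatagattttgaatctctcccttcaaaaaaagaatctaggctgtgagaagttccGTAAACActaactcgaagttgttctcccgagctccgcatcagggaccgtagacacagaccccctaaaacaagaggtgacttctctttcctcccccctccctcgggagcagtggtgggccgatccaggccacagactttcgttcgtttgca
Suz12: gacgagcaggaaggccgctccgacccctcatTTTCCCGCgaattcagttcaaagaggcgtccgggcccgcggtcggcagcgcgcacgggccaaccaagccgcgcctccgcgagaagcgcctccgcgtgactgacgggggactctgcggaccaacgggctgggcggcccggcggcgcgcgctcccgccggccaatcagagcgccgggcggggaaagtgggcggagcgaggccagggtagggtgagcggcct
Windows were searched on both strands for the forkhead motif GTAAACA and for the E2F motifs TTTCCCGC, TTTGGCGC, TTTCGCGC and TTTGCCGC. Eed held 1 forkhead match, 150 bases before the start, and Suz12 held 1 E2F match, 219 bases before it. Among the 32851 RefSeq promoter windows of this length, 3.17% held the forkhead motif and 1.86% an E2F motif. The windows of Cbx6, Cbx7, Cbx8, Bmi1, Rnf2 and Ezh2 held neither. A match to these letters is not a measured binding site. Suz12 had 37 CpG dinucleotides in the window and Eed 12, beside a median of 6 over all windows. The windows of Cbx6, Cbx7, Cbx8, Bmi1, Rnf2 and Ezh2 had 20 to 23, so Eed had the fewest of these members.

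Ezh2, the methyltransferase, varied more between clones than between groups. It had 20.3, 23.9, 22.0 and 35.1 RPKM in FOXP2-CPED1 clones 1 to 4, 27.9, 36.9, 18.01 and 29.7 RPKM in FOXP2 clones 1 to 4, and 26.5 RPKM in parent and 23.6 RPKM in vector cells. FOXP2 clone 2 and FOXP2-CPED1 clone 4 were highest, FOXP2 clone 3 was lowest, and both controls lay inside the range of the clones. Its log2 difference from control was -0.01 in FOXP2-CPED1 clones (95% interval -0.63 to 0.60, limma adjusted p = 0.997) and 0.12 in FOXP2 clones (95% interval -0.50 to 0.74, adjusted p = 0.943). The summed level of 19 proliferation genes singled out the same 3 clones. It was highest in FOXP2 clone 2 (1606 RPKM) and FOXP2-CPED1 clone 4 (1454 RPKM) and lowest in FOXP2 clone 3 (536 RPKM), with 818 RPKM in parent and 808 RPKM in vector cells. Not all 19 genes followed the sum. In FOXP2 clone 3, Top2a and Tyms lay above both controls, whereas the other genes of the list lay below both. The part of proliferation in the Ezh2 level was not tested.

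Ezh1, the paralog that is prominent in cells that divide little, ran the other way at those ends. It had 9.66, 6.36, 10.7 and 5.38 RPKM in FOXP2-CPED1 clones 1 to 4, 9.37, 4.66, 12.6 and 8.75 RPKM in FOXP2 clones 1 to 4, and 7.51 RPKM in parent and 8.17 RPKM in vector cells. FOXP2 clone 3 had the highest Ezh1 and the lowest Ezh2, and FOXP2 clone 2 the reverse. Ezh2 made up 67.2% to 86.7% of the summed Ezh1 and Ezh2 RPKM in FOXP2-CPED1 clones, 58.9% to 88.8% in FOXP2 clones, and 77.9% in parent and 74.3% in vector cells. Ezh2 overlaps Gm26625 and Gm44282 on the opposite strand, neither with a row of its own. For Ezh1, the log2 difference from control was -0.01 in FOXP2-CPED1 clones (limma adjusted p = 0.997) and 0.09 in FOXP2 clones (adjusted p = 0.972).

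**Figure D3:**
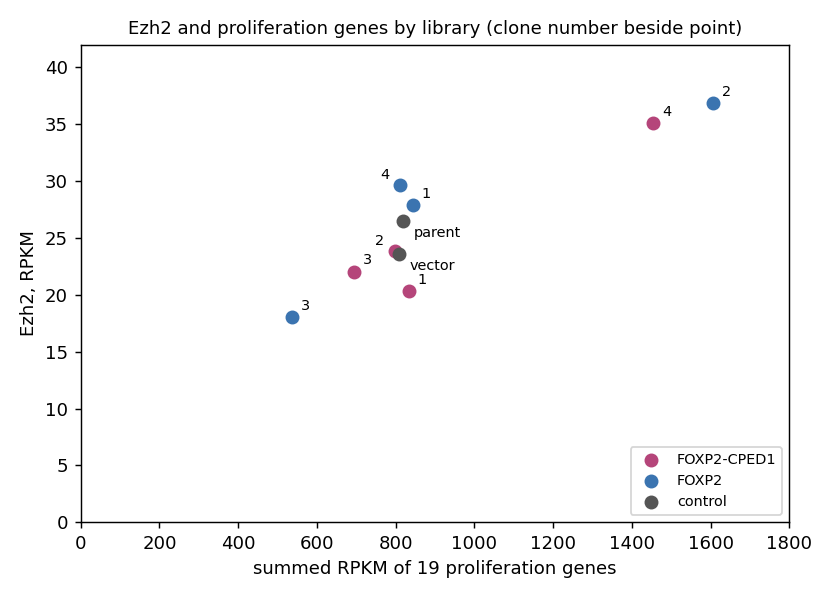
Ezh2 level in RPKM against the summed RPKM of 19 proliferation genes, 1 point for each of the 10 libraries, with clone numbers beside the points. FOXP2 clone 2 and FOXP2-CPED1 clone 4 lie at the upper right at 36.9 and 35.1 RPKM of Ezh2, FOXP2 clone 3 lies at the lower left at 18.01 RPKM, and parent and vector lie among the other clones.

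Wider lists of Polycomb genes and other histone-modifying enzymes were read from the fit with equal weights. In that fit no gene of any of them passed the threshold in any comparison. The lists were not read under quality weights, where many more rows passed, so their calls cannot be set beside the members' calls there. Of 7 canonical PRC1 subunits outside the members, 2 had positive log2 differences in each construct, with a median of -0.27 in FOXP2-CPED1 clones and -0.21 in FOXP2 clones against controls. Phc2, a polyhomeotic subunit, averaged 33.4 ± 1.91 RPKM in FOXP2-CPED1 clones, 39.8 ± 14.8 RPKM in FOXP2 clones and 44.1 ± 2.50 RPKM in controls. All FOXP2-CPED1 clones lay below both controls (limma adjusted p = 0.817), whereas FOXP2 clone 2 was the highest library at 61.7 RPKM. Ring1, the paralog of Rnf2, averaged 20.6 ± 4.21 RPKM in FOXP2-CPED1 clones, 17.99 ± 1.77 RPKM in FOXP2 clones and 25.0 ± 5.21 RPKM in controls (SD, n = 4, 4 and 2). Its log2 difference from control was -0.44 ± 0.20 in FOXP2 clones (limma adjusted p = 0.601). Pcgf2, the paralog of Bmi1, averaged 24.3 ± 4.17 RPKM in FOXP2-CPED1 clones, 24.5 ± 7.94 RPKM in FOXP2 clones and 25.9 ± 0.218 RPKM in controls, with log2 differences of -0.10 and -0.13 in the constructs in that order.

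The 13 tested variant PRC1 subunits belong to complexes that lack the CBX subunits of canonical PRC1. They had medians of 0.04 in FOXP2-CPED1 clones and 0.09 in FOXP2 clones. Of these 13 genes, 3 (Mga, Kdm2b and Dcaf7) lay above both controls in every clone and 0 lay below, beside 5.44% and 6.38% of all rows tested. Mga, a DNA-binding subunit, averaged 7.51 ± 0.836 RPKM in FOXP2-CPED1 clones, 7.62 ± 1.60 RPKM in FOXP2 clones and 5.39 ± 0.260 RPKM in controls. Its limma adjusted p was 0.689 in FOXP2-CPED1 clones and 0.590 in FOXP2 clones. Dcaf7, a scaffold protein found in several variant complexes, averaged 29.4 ± 2.45 RPKM, 28.3 ± 2.84 RPKM and 23.5 ± 0.743 RPKM in FOXP2-CPED1 clones, FOXP2 clones and controls, with adjusted p of 0.684 and 0.704 for the constructs in that order. The 8 tested PRC2 subunits outside the members had medians of -0.01 in FOXP2-CPED1 clones and -0.02 in FOXP2 clones. Jarid2, which helps recruit PRC2, averaged 4.10 ± 0.682 RPKM in FOXP2-CPED1 clones, 5.06 ± 0.913 RPKM in FOXP2 clones and 3.59 ± 0.284 RPKM in controls, and Lcorl averaged 5.58, 6.67 and 5.72 RPKM in the same groups.

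Genes of the H2A deubiquitinase, of the lysine 27 demethylases and of enzymes that place or remove lysine 4 methylation gave the same count of calls with equal weights, 0. The 9 tested genes of the H2A deubiquitinase PR-DUB had medians of 0.07 in FOXP2-CPED1 clones and 0.18 in FOXP2 clones. Foxk2, a forkhead protein that binds this complex, averaged 15.7 ± 2.69 RPKM in FOXP2-CPED1 clones, 16.4 ± 1.69 RPKM in FOXP2 clones and 11.6 ± 0.566 RPKM in controls, and every clone lay above both controls (limma adjusted p = 0.640 in FOXP2-CPED1 clones and 0.418 in FOXP2 clones). Bap1, its catalytic subunit, averaged 26.5 ± 3.98 RPKM, 27.03 ± 5.91 RPKM and 19.8 ± 2.24 RPKM in FOXP2-CPED1 clones, FOXP2 clones and controls. Among 12 tested lysine 27 and lysine 4 demethylases and Trithorax-group methyltransferase genes, Kmt2b, which methylates lysine 4 of histone H3, averaged 20.7 ± 0.380 RPKM in FOXP2-CPED1 clones, 23.7 ± 4.44 RPKM in FOXP2 clones and 17.2 ± 0.199 RPKM in controls (adjusted p = 0.817 and 0.477 for the constructs in that order). Kdm5c, a lysine 4 demethylase and so an opponent of Kmt2b rather than of Polycomb marks, averaged 31.0, 37.4 and 38.2 RPKM in FOXP2-CPED1 clones, FOXP2 clones and controls.

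The heterochromatin chromobox genes Cbx1, Cbx3 and Cbx5 encode HP1 proteins, which bind methylated lysine 9 and are not among the CBX subunits of canonical PRC1. All 3 were listed at higher RPKM than Cbx2 in every library, and none was called with equal weights. Cbx1 averaged 48.2 ± 3.94 RPKM in FOXP2-CPED1 clones, 47.2 ± 5.80 RPKM in FOXP2 clones and 42.2 ± 6.06 RPKM in controls. Cbx3 averaged 158.8 ± 7.07, 165.2 ± 31.2 and 151.4 ± 10.3 RPKM, and Cbx5 58.3 ± 18.5, 52.4 ± 16.7 and 51.9 ± 0.925 RPKM in the same order of groups.

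Genes that Polycomb holds silent in many tissues were in part outside the table's single-gene rows. Of 39 Hox genes, 11 had a row of their own, 14 were only in joined rows and 9 passed the filter; of 28 other textbook targets, 8 had a row and 7 passed. The summed level of the Hox rows was 36.8 to 58.1 RPKM in FOXP2-CPED1 clones, 43.7 to 51.1 RPKM in FOXP2 clones and 50.4 to 55.9 RPKM in controls. The 9 tested Hox genes had median log2 differences from control of 0.18 in FOXP2-CPED1 clones and 0.07 in FOXP2 clones, with 6 positive in each. The 7 other targets tested had medians of 0.23 and 0.13 in that order, with 4 positive in each. Hoxa7, a Hox gene expressed in all libraries, averaged 20.3 ± 3.80 RPKM in FOXP2-CPED1 clones, 19.8 ± 2.24 RPKM in FOXP2 clones and 26.6 ± 1.63 RPKM in controls, with every clone below both controls (limma adjusted p = 0.706 and 0.589 for the constructs in that order). Nkx2-5, a cardiac transcription factor, averaged 10.2 ± 1.11 RPKM in FOXP2-CPED1 clones, 9.75 ± 2.18 RPKM in FOXP2 clones and 17.7 ± 1.21 RPKM in controls. Its log2 difference from control was -0.75 ± 0.20 (adjusted p = 0.296) in FOXP2-CPED1 clones and -0.82 ± 0.20 (adjusted p = 0.175) in FOXP2 clones, so it did not pass although every clone lay below both controls. Pax9, a paired-box factor, went the other way, with every clone above both controls. It averaged 8.21 ± 3.36 RPKM in FOXP2-CPED1 clones, 7.68 ± 5.40 RPKM in FOXP2 clones and 3.65 ± 0.311 RPKM in controls. FOXP2 clone 2, at 4.03 RPKM, lay close to parent cells at 3.87 RPKM, and FOXP2 clone 3 was highest at 15.7 RPKM. Pax9 did not pass, and its smallest unadjusted limma p over the 3 comparisons was 0.0740. Of all rows tested, 5.44% lay above both controls in all 8 clones and 6.38% below. Hoxc5 averaged 1.22, 0.817 and 0.633 RPKM in those groups.

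Genes whose levels followed Cbx2 most closely were ranked by Pearson correlation of log2(RPKM + 1) over the 10 libraries, among 10062 genes with a mean of at least 2 RPKM. The genes were measured in the same libraries and share the split between clones and controls, so these values describe the libraries and carry no test. The 5 highest were Trit1 (r = 0.947), a tRNA-modifying enzyme, Cpa6 (0.942), a carboxypeptidase, Ppil4 (0.940), Morc3 (0.925) and Eml4 (0.925). Cpa6 ran from 3.76 to 7.37 RPKM in FOXP2-CPED1 clones and from 3.23 to 6.96 RPKM in FOXP2 clones, and stood at 0.104 to 0.246 RPKM in controls. The 3 lowest were Cyr61 (r = -0.973), Cmip (-0.951) and Srf (-0.941). Srf, the serum response factor, averaged 12.3 RPKM in FOXP2-CPED1 clones, 13.0 RPKM in FOXP2 clones and 53.4 RPKM in controls, and Cyr61, a secreted matrix protein gene, averaged 120.3, 168.9 and 737.5 RPKM. Of the members, Eed (r = 0.735) ranked 137 and Rnf2 (0.705) ranked 197, Suz12 (0.509) ranked 862, and Bmi1 (-0.08), Cbx8 (-0.08) and Ezh2 (-0.26) lay far down the order.

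The libraries gave summed RPKM values between 794682 and 944602, with Spearman correlations between 0.925 and 0.982. Depth in reads is unknown, because the table holds no counts. The mouse Foxp2 row stood at 0.0674 to 0.330 RPKM in FOXP2-CPED1 clones, 0.145 to 1.02 RPKM in FOXP2 clones, and 0.0798 RPKM in parent and 0.0785 RPKM in vector cells, and Cped1 was at 6.69 to 25.4, 6.43 to 31.0, 24.2 and 26.98 RPKM in the same order. Whether construct reads would be counted in these rows is not given, so the groups rest on their labels. FOXP2-CPED1 clone 3 and FOXP2 clones 2 and 4 had both mitochondrial rows at 0. Without these 3 libraries Cbx2 no longer passed the threshold in FOXP2-CPED1 clones. The summed level of 7 fibroblast markers was 6349 to 8898 RPKM in FOXP2-CPED1 clones, 5917 to 8149 RPKM in FOXP2 clones and 8957 to 9067 RPKM in controls, so every clone lay below both controls in the sum. The markers did not all move this way. Vim, an intermediate filament gene, ran from 1737 to 2156 RPKM in FOXP2-CPED1 clones, from 1295 to 2420 RPKM in FOXP2 clones and from 2794 to 3140 RPKM in controls, and Thy1 also lay below both controls in all 8 clones. Col1a1, a collagen gene, lay above both controls in all 4 FOXP2-CPED1 clones, at 1086 to 1239 RPKM, and in 2 of 4 FOXP2 clones, at 889.0 to 1136 RPKM over the group, against 960.0 to 991.5 RPKM in controls. Without Vim, a choice made after seeing the values, the sum was 4192 to 6999 RPKM in FOXP2-CPED1 clones, 3496 to 6854 RPKM in FOXP2 clones and 5928 to 6163 RPKM in controls, with 2 FOXP2-CPED1 clones and 1 FOXP2 clone above both controls. The part of these markers in the Polycomb values was not tested. Of the markers with rows of their own, 1 of 7 epithelial markers (Cdh1) reached at most 2.37 RPKM, 1 of 6 neuronal markers (Stmn2) at most 0.880 RPKM, and 2 of 6 endothelial markers (Cdh5 and Vwf) together reached 17.1 RPKM in 1 FOXP2 clone, and no blood marker had such a row.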

How the data were processed

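RNA from 10 NIH3T3 cultures was sequenced after Trizol extraction and preparation of libraries (NEBNext Ultra RNA), per the labels' protocols. The authors deposited 1 table of RPKM values for all libraries, per the file headers. HISAT2, StringTie and mm9 appear in the submitters' processing notes, with no role or version. Depth in reads is unknown, so no counting interval can be given. All columns of per-sample values were used. Rows that name no gene held 3.37% to 4.54% of the summed RPKM and were left out.

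Values were tested as log2(RPKM + 1) for rows that reached 1 RPKM in at least 2 libraries, with limma 3.58.1 in R 4.3.3 (trended empirical Bayes, 1 fit over 3 groups, Benjamini-Hochberg adjustment, threshold 0.05); the procedure was tested on simulated data. Members and lists were chosen with earlier results of these data known. Named genes were the members, their listed paralogs, the 3 heterochromatin chromobox genes, for each list the 2 tested genes with the smallest p over the 3 comparisons, and the 5 genes most like and 3 least like Cbx2. The comparison of all 8 clones with the controls was added after seeing the data. The planned share of Cbx2 among CBX genes and 1 listed gene are not reported here. GENCODE M21 and RefSeq (GRCm38) differ in build from the table and were used only for gene order, overlaps and sequence. Promoter entries were found for 8 of 9 members, that of Cbx2 being missing.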

Additional observations from a re-analysis of the deposited data

How the results depend on the processing

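With 2 control libraries and 4 clones per construct, small differences cannot be resolved, and depth could not be used to judge low rows. Over the alternative runs, the log2 difference of Cbx2 ran from 1.02 to 1.27 in FOXP2-CPED1 clones against controls. It ran from 0.77 to 0.97 in FOXP2 clones against controls (0.97 with a pseudocount of 0.1, 0.94 with 0.25). Between the constructs it ran from 0.12 to 0.39, and for all clones from 0.91 to 1.12. Every clone lay above both controls, so leaving out libraries or changing the pseudocount could not change its sign against controls. These ranges describe a gene chosen by its values and are no test of it. The number of rows called moved much more. In FOXP2-CPED1 clones against controls it was 45, and 28 with a pseudocount of 0.1 and 929 with quality weights (343 higher and 586 lower). In FOXP2 clones against controls it was 56, and 37 with a pseudocount of 0.1, 2095 with quality weights (1013 higher and 1082 lower), 9 with only the groups compared and 23 without the 3 libraries whose mitochondrial rows are at 0. Quality weights called 4 rows between the constructs and 1842 for all clones (816 higher and 1026 lower), against 0 and 69. Members called with quality weights were 3 in FOXP2-CPED1, 4 in FOXP2 and 4 in all clones. The 1 member called, Cbx2, became 0 with only the groups compared (FOXP2-CPED1 clones) and without the 3 mitochondrial libraries (FOXP2-CPED1 clones and all clones). The causes were not tested.

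Leaving out 1 library gave 0 to 57 rows called in FOXP2-CPED1 clones, 2 to 64 in FOXP2 clones, 0 to 1 between the constructs (1 without FOXP2-CPED1 clone 2) and 2 to 82 for all clones. The counts in FOXP2-CPED1, FOXP2 and all clones were 0, 2 and 2 without parent cells and 2, 3 and 3 without vector cells. Without FOXP2-CPED1 clone 1, 2 or 3 the count in FOXP2-CPED1 clones was 13, 14 or 17, and for FOXP2 clones it was 22, 33, 25 and 29 without FOXP2 clone 1, FOXP2-CPED1 clone 1, FOXP2 clone 4 and FOXP2-CPED1 clone 3. For all clones it was 43 and 42 without FOXP2-CPED1 clones 1 and 3. Members called ran from 0 to 1 in FOXP2-CPED1, FOXP2 and all clones and stayed at 0 between the constructs. Cbx2 dropped out in FOXP2-CPED1 clones without parent, vector, FOXP2 clone 1 or FOXP2-CPED1 clone 1, 2 or 3, and came in for FOXP2 clones without FOXP2-CPED1 clone 4. In all clones it dropped out without any of the same libraries or FOXP2 clone 4. Its difference ran from 1.02 to 1.21, 0.77 to 0.86, 0.20 to 0.39 and 0.91 to 1.01 in FOXP2-CPED1, FOXP2, between constructs and all clones.

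Of the other members' values under alternatives, 435 kept their side, 8 newly passed and 37 changed sign, all of them small differences that did not pass. With quality weights Bmi1 was 0.13 in FOXP2 clones, 0.028 in all clones and -0.19 between the constructs, and Rnf2 was -0.029 between them. Ezh2 in FOXP2-CPED1 clones was 0.0067 after quantile normalization. Without the 3 mitochondrial libraries Ezh2 was 0.041 in FOXP2-CPED1, -0.15 in FOXP2 and -0.054 in all clones, and between the constructs Cbx8 was -0.090, Bmi1 -0.028, Rnf2 -0.018, Ezh2 0.19 and Suz12 0.055. Leaving out 1 library, Bmi1 ran from -0.25 to 0.12 in FOXP2-CPED1, -0.26 to 0.12 in FOXP2, -0.072 to 0.15 between the constructs and -0.25 to 0.12 in all clones. Ezh2 ran from -0.18 to 0.078, -0.020 to 0.31, -0.32 to 0.0063 and -0.027 to 0.15 in that order, and between the constructs Cbx8 ran from -0.060 to 0.22 and Suz12 from -0.16 to 0.017.

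Clones that share a number had correlations of their deviations of -0.04, -0.24, 0.28 and 0.17 for numbers 1 to 4. Pairs of unlike number ran from -0.43 to 0.39, a range that held all of these values. A pairing by number was thus not seen, though 4 values are too few to exclude one. With clone number as a replicate block, FOXP2-CPED1 against FOXP2 clones gave 0 rows called and a Cbx2 difference of 0.27 ± 0.15.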
